A study of Mus musculus with 4 samples.

Results

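The MARCH genes are a family of ubiquitin ligase genes, and 7 of them (March4, March5, March6, March7, March8, March9 and March11) were followed on arrays of mouse ES cell RNA. They were taken as the genes whose symbols a supplementary listing of the study pairs with probes of the array, which gave 10 of the 42006 gene probes on it, each of 60 bases, with a second probe for 3 of the genes (March4, March5 and March6). RefSeq now lists these genes with the prefix Marchf. Male mouse ES cells of the line B6R(5), strain C57BL/6, were grown without feeder cells, and 24 hr after plating the medium was replaced with medium holding DMSO alone or an inhibitor dissolved in DMSO. The inhibitors were PD173074 against FGF receptors (FGFR inhibitor), PD98059 against the kinase MEK (MEK inhibitor) and BIO against glycogen synthase kinase (GSK inhibitor), and all 4 cultures, the control included, held 0.2% DMSO for 48 hr. RNA of each culture was labelled with Cy3 and hybridised to 1 array of a single slide together with Cy5-labelled reference RNA pooled from mouse cell lines. There was 1 array for each condition, so that no difference between conditions has a replicate check and no test was made.

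MARCH proteins carry a variant RING domain that passes ubiquitin from a conjugating enzyme to a target, and most of them sit in a membrane. Their targets are largely membrane proteins, which are then removed from the cell surface, sent to lysosomes or handed to the proteasome. March5 lies in the outer mitochondrial membrane and acts on proteins of mitochondrial fission and fusion, while March6 lies in the ER and takes part in the degradation of ER proteins and of sterol synthesis enzymes. March4, March8 and March9 lower the amount of immune and other receptors on the cell surface, March11 has been described in the testis, and March7, also called axotrophin, lacks the membrane-spanning segments of the others.

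Of 22 ES cell markers looked for, 4 could be paired with a probe, and all had more signal in the ES cells than in the reference. On the control array their log2 ratios of ES cells to reference were 2.97 for Tcfcp2l1, 2.20 for Prdm14, 4.01 for Gbx2 and 1.92 for Nr5a2. The fibroblast collagen gene Col3a1 stood at -7.19 on the same scale, and Col5a2, another fibroblast collagen gene, was not well above background in Cy3 on any array. Fn1, which encodes fibronectin, was at -1.72. The endoderm factor Sox17 was at 2.10. The labelled cell type was therefore checked on 4 ES cell markers only; the pluripotency factors most often used to define these cells had no paired probe here.

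How far each MARCH gene was measured was asked first. On every one of the 4 arrays, Cy3 signal of the ES cells stood well above background for 6 of the 7 genes and for 8 of the 10 probes. March4 was the exception. Its first probe had a net Cy3 signal, after local background was subtracted, of 16.3 with DMSO, 21.2 with the FGFR inhibitor, 14.2 with the MEK inhibitor and 11.5 with the GSK inhibitor, and it was well above background only with the FGFR inhibitor. The second March4 probe, with net signals between 3.49 and 10.8, was not well above background on any array. Cy3 of the first March4 probe after loess and Aquantile was 1.07-fold higher with the FGFR inhibitor than with DMSO, but its log2 fold change was only 0.05, and -0.0064 with median centring, so that no bound and no direction is given for March4. March11 was measured, but near the floor, with net Cy3 signals of 21.6, 21.3, 31.2 and 22.4 in the order DMSO, FGFR, MEK and GSK inhibitor. Its reference signal was well above background on 2 arrays only, which leaves its ratio poorly fixed.

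**Figure D1:**
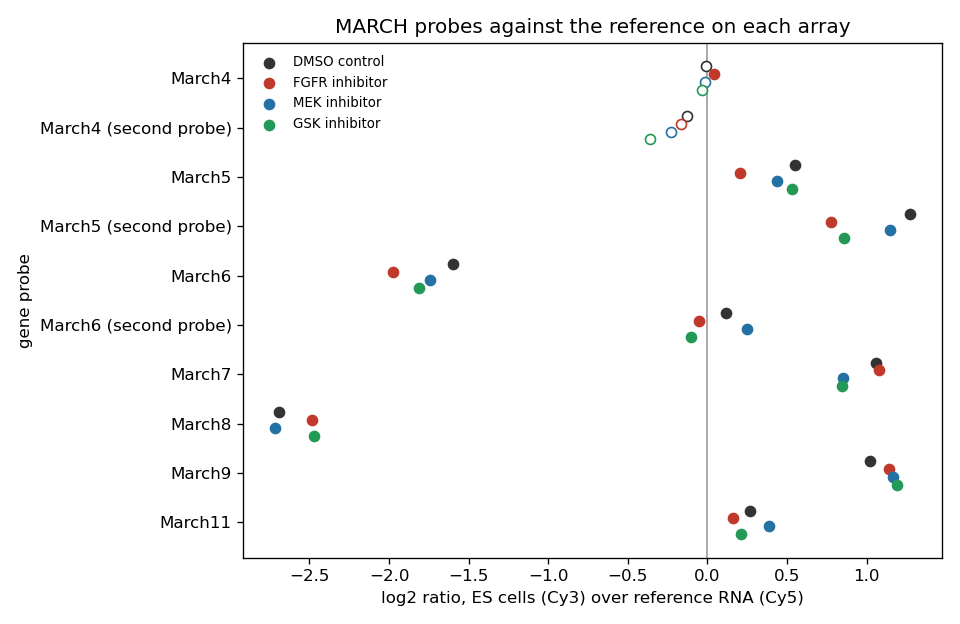
Log2 ratio of ES cell signal (Cy3) to reference signal (Cy5) of each MARCH probe on the 4 arrays; each point is 1 array, colours give the condition, and open points are those where Cy3 was not well above background. March8 and the first March6 probe lie left of 0 on every array, while March7, March9 and the second March5 probe lie right of it.

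MARCH genes lay on both sides of the reference. For 5 genes Cy3 and Cy5 both stood well above background on every array, and of these 2 (March7 and March9) were at least 1.5-fold above the reference on every array and 2 (March6 and March8, by the first probe of March6) were at least 1.5-fold below it. March5 was below that bound by its first probe, which the count uses, and above it on every array by its second. With median centring in place of loess the 2 genes above became 0, and the 2 below remained. The second March5 probe was then short of the bound with the FGFR and the GSK inhibitor, at 0.36 and 0.47. Among all genes measured in the same way, 24.6% were above and 25.9% below by that rule, so that both directions were common on these arrays; with median centring the shares were 15.3% and 36.6%. The ratio compares RNA amounts in whole cultures, in which fewer cells of a kind and less RNA per cell cannot be told apart. Dyes were not exchanged, so that a preference of a probe for a dye remains in its level.

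March8, a ligase of endosomes and the cell surface, was below the reference on every array. Its log2 ratio was -2.69 with DMSO, -2.49 with the FGFR inhibitor, -2.71 with the MEK inhibitor and -2.47 with the GSK inhibitor. ES cell signal was thus 6.46-fold below the reference in the control culture, and the 4 arrays lay within 0.24 of each other. The reference signal of this probe was strong, at a net Cy5 signal of 4492 on the control array against a net Cy3 signal of 368.

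March9, which lowers surface receptors, had log2 ratios of 1.02 with DMSO, 1.14 with the FGFR inhibitor, 1.17 with the MEK inhibitor and 1.19 with the GSK inhibitor. The control array was lowest, but the whole range was 0.16, and genes of similar signal spread by a robust SD of 0.26 between the control and FGFR inhibitor arrays. March7 had log2 ratios of 1.06 with DMSO, 1.08 with the FGFR inhibitor, 0.85 with the MEK inhibitor and 0.84 with the GSK inhibitor. March7 signal in the control culture was 2.08-fold that of the reference, and the gene stayed above the reference on every array. March11 stood at 0.27, 0.16, 0.38 and 0.21 in the same order of conditions, with the weak reference signal already described; in the processed signals it stood at 2.00, 0.94, 1.86 and 1.43, so that its level is not fixed here.

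March5 and March6 were each measured by a pair of probes, and these did not give the same level. The first March5 probe had log2 ratios of 0.55 with DMSO, 0.20 with the FGFR inhibitor, 0.44 with the MEK inhibitor and 0.53 with the GSK inhibitor. The second March5 probe had 1.27, 0.77, 1.14 and 0.86 in that order. Both placed the ES cells above the reference and had their lowest value with the FGFR inhibitor, but with median centring in place of loess the first probe fell to a mean of -0.0009 over the 4 arrays, while the second remained above 0. For March6 the probes differed in size. The first March6 probe had log2 ratios of -1.60 with DMSO, -1.97 with the FGFR inhibitor, -1.74 with the MEK inhibitor and -1.81 with the GSK inhibitor. The second March6 probe had 0.12, -0.06, 0.25 and -0.10, close to the reference, and with median centring it was below 0 on every array, at -0.42, -0.54, -0.12 and -0.59. In the processed signals it was at 0.29, 0.11, 0.48 and -0.0033. Whether March6 lay below the reference thus depended on the probe and, for the second probe, on the processing; what made the probes differ was not tested.

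The probes are given because the statements on March5 and March6 rest on them. Capitals mark bases within the longest run that the probe shares with any other gene probe of the array on either strand. The second March5 probe is given whole, and of the others the first 30 bases are given.
March5 first probe: tcaacccccactgtcagcatagCTTGAGAG
March5 second probe: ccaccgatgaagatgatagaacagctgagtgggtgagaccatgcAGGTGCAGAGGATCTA
March6 first probe: ctgcatctgccgACATCACTGCTGTcttga
March6 second probe: ctttacaggaaatttatagagatgtgcatc
The longest shared run was 17 bases for the first March5 probe, 16 for the second, 13 for the first March6 probe and 15 for the second, where it lies beyond the bases shown. Each of these runs was shared with 1 other probe, and copies with mismatches were not searched for. Their G and C content was 45.0% and 51.7% for March5 and 45.0% and 35.0% for March6. The scanner files list the probes as unmapped, and no position in the genome is given for them here.

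Whether an inhibitor changed a MARCH gene was read from the log2 fold change, found by subtracting the log2 ratio of the control array from that of the inhibitor array. Beside it stands the robust SD of that difference among genes of similar Cy3 signal, which holds true changes as well as error and was computed for the processing used, not for each alternative. All 3 comparisons use the same control array. With the FGFR inhibitor, 0 of the 6 measured MARCH genes changed at least 1.5-fold, where 5.7% of all genes measured did so, and 0 changed at least 2-fold, against 1.39% of all genes. Over the 6 genes the median log2 fold change was -0.04 beside -0.02 for all genes, with 3 values above 0 and 3 below. A count of 0 among 6 genes lies near these shares and tells little of the family.

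**Figure D2:**
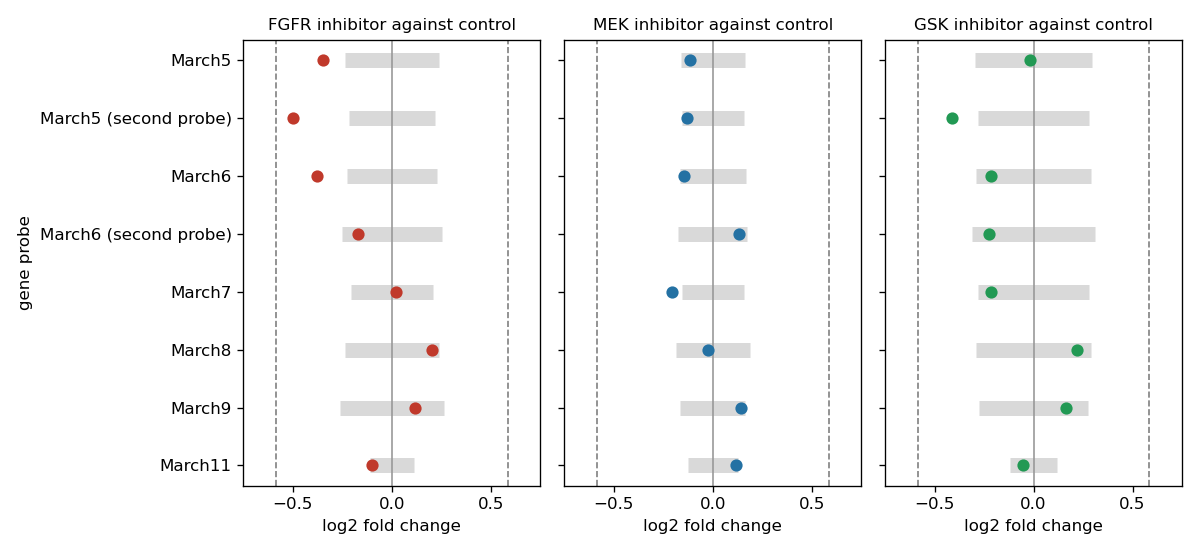
Log2 fold change of each MARCH probe, except those of March4, with each inhibitor against the DMSO control (points, 1 array in each condition); grey bars span 1 robust SD to either side of 0 among genes of similar signal, and dashed lines mark 1.5-fold. No point lies beyond the dashed lines, and with the FGFR inhibitor both March5 probes and the first March6 probe lie left of the grey bars.

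By the processing used, the lowest values with the FGFR inhibitor belonged to the mitochondrial ligase March5 and the ER ligase March6. In the processed signals March11 was lowest, as given below. The log2 fold change of March5 was -0.35 by the first probe (robust SD 0.24) and -0.50 by the second (robust SD 0.22), and 15.3% and 7.92% of all genes moved further in either direction. The second probe was 2.29 robust SDs below 0, at 1.41-fold, short of 1.5-fold, which it passed in Cy3 alone. Both March5 probes were below 0 under every alternative processing tried, including Cy3 alone, which gave -0.49 and -0.59. Cy5 of the reference on these probes differed by -0.15 and -0.09. The log2 fold change of March6 was -0.38 by its first probe (robust SD 0.23) and -0.17 by its second (robust SD 0.25). The March6 probes thus had the same sign, but only the first was beyond 1 robust SD. Of all genes 13.3% and 40.2% moved further than these probes in either direction. Cy3 alone gave -0.31 for the first March6 probe and -0.17 for the second.

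March8 was at 0.20 with the FGFR inhibitor (robust SD 0.24), March9 at 0.12 (robust SD 0.26) and March7 at 0.02 (robust SD 0.21). By the processing used none of these surface and cytosolic ligases was beyond 1 robust SD. March8 was beyond it at 0.30 in the processed signals, 0.29 in Cy3 alone and 0.27 with median centring. March7 was beyond it only in Cy3 alone, at 0.26. The Cy5 signal of the reference on the March7 probe also differed from the control array, by 0.23, which Cy3 alone leaves in. March11 was at -0.10 (robust SD 0.11), but its value depended strongly on processing: in the processed signals of the scanner software it was -1.05, with an error of 0.63 for the difference by the error model of that software. By those signals March11 would count as changed at least 2-fold; its net Cy3 signals of 21.6 and 21.3 on the control and FGFR inhibitor arrays were almost equal, whereas its net Cy5 signals were 9.13 and 13.8.

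With the MEK inhibitor, 0 of the 6 measured MARCH genes changed at least 1.5-fold, beside 1.05% of all genes, and 0 changed at least 2-fold, beside 0.0832%. This inhibitor moved fewer genes of the array than the others. The median of the 6 genes was -0.07 beside -0.01 for all genes, with 2 values above 0 and 4 below. The largest of them was March7, at -0.21 (robust SD 0.16), and 22.8% of all genes moved further. This value was -0.0362 in Cy3 alone and -0.0151 with median centring, and between -0.19 and -0.21 under the other alternatives. March5 was at -0.11 and -0.13 by its first and second probe, and March6 at -0.15 and 0.13. In Cy3 alone March5 was at -0.26 and -0.20, beyond its robust SD of 0.16 for both probes. The Cy5 signal of the reference on these probes also differed from the control array, by -0.16 and -0.07, which Cy3 alone leaves in. March6 had opposite signs by its probes, and no statement on its direction with the MEK inhibitor can be made. March9 was at 0.14 (robust SD 0.16), and beyond 1 robust SD in Cy3 alone, with median centring and in the processed signals. March11 was at 0.12 (robust SD 0.13) and March8 at -0.02. March11 was beyond 1 robust SD with an offset of 16, at 0.17, and without background subtraction, at 0.16. The second March6 probe (robust SD 0.17) was beyond it with median centring, at 0.29, and in the processed signals, at 0.20. Median centring shifted this comparison as a whole, with a median of 0.10 for all genes, and turned both March5 probes, the first March6 probe and March8 above 0. March8 was also above 0 in Cy3 alone, and in the processed signals March8 was above 0 and March11 below it.

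With the GSK inhibitor, 0 of the 6 measured MARCH genes changed at least 1.5-fold, beside 6.54% of all genes, and 0 changed at least 2-fold, beside 1.43%. The median of the 6 genes was -0.03 beside -0.0033 for all genes, with 2 values above 0 and 4 below. The probes of March5 parted here: the first was at -0.02 (robust SD 0.30) and the second at -0.41 (robust SD 0.28). Only the second probe was beyond 1 robust SD, so that March5 had no single value with the GSK inhibitor. The first probe was above 0 with median centring and in the processed signals. In Cy3 alone the first probe was at -0.22 and the second at -0.46. Cy5 of the reference on these probes differed by -0.21 and -0.06. March6 was at -0.22 by both probes, within the robust SDs of 0.29 and 0.31. March7 was at -0.21, March8 at 0.22, March9 at 0.16 and March11 at -0.05, each within 1 robust SD of 0. With median centring March8 was at 0.31 (robust SD 0.29). In the processed signals March11 was at -0.56, with an error of 0.63 for the difference by the error model of the scanner software. Its robust SD of 0.12 was not computed for those signals.

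Inhibitors were also set against each other without use of the control array. Between the FGFR and MEK inhibitors 0 of the 6 measured genes differed at least 1.5-fold, beside 2.86% of all genes. In this comparison, FGFR minus MEK, March5 was at -0.23 by the first probe (robust SD 0.20) and -0.37 by the second (robust SD 0.17), and March6 at -0.23 and -0.31 (robust SD 0.19 for both). All 4 probes of these genes were thus lower with the FGFR inhibitor than with the MEK inhibitor by more than 1 robust SD. Differences of this size were common: 20.7% and 8.68% of all genes differed by more than the March5 probes in either direction. For the March6 probes the shares were 21.1% and 12.6%. Probes of a gene are not replicates. March7 and March8 lay the other way, at 0.23 and 0.23 (robust SD 0.18 for both), also beyond 1 robust SD. Of all genes 21.8% and 21.3% differed by more. With median centring March7 and March8 were at 0.10 and 0.11, within 1 robust SD. March9 was at -0.03, and March11 at -0.22 (robust SD 0.13), but at -0.12 with median centring and -0.92 in the processed signals. For the last value the scanner software gave an error of 0.55.

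Between the GSK and FGFR inhibitors 0 of the 6 genes differed at least 1.5-fold, beside 6.06% of all genes. The largest difference, GSK minus FGFR, was 0.33 for the first March5 probe (robust SD 0.27), while the second was at 0.09. Between the GSK and MEK inhibitors 0 of the 6 differed at least 1.5-fold, beside 4.88% of all genes. There the second March6 probe was lowest, at -0.35 (robust SD 0.26), while the first was at -0.07. The second March5 probe, at -0.28 (robust SD 0.22), and March11, at -0.17 (robust SD 0.16), were also beyond 1 robust SD. The first March5 probe was at 0.10. In the processed signals March11 was at 0.49 for GSK minus FGFR and at -0.425 for GSK minus MEK. The scanner software gave errors of 0.59 and 0.55 for these differences. By the processing used the largest value in each was that of a probe whose partner on the same gene gave a much smaller one.

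Genes whose 4 log2 ratios were most like those of a MARCH probe were sought among the 4460 or 4461 probes with a paired symbol and with Cy3 measured well above background on every array, by Euclidean distance on the log2 scale. March9 had the closest, Denr, a translation factor gene, at a distance of 0.02 (1.01, 1.14, 1.18 and 1.19 with DMSO, FGFR, MEK and GSK inhibitor). For March7 it was Psmc3, a proteasome ATPase gene, at 0.09. For the first March5 probe it was Lrrc59 at 0.10 and for the second Paox, a polyamine oxidase gene, at 0.16. The 2 probes of March5 thus had different neighbours. For the second March6 probe it was Acvr2a, an activin receptor gene, at 0.08. For March8 it was 1110019K23Rik at 0.19 and for March11 4930535I16Rik at 0.05. With 4 arrays and so many candidates such a neighbour is a description of these arrays only.

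March1, a ligase of antigen presenting cells, and March10 each had 1 paired probe, and neither was well above background on any array. March2 and March3 had no paired probe here.

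Genes that act with MARCH ligases were described from 7 lists, as far as a symbol could be paired with a probe, and 77 genes were so measured on all 4 arrays. Of all genes measured 5.7%, 1.05% and 6.54% passed 1.5-fold with the FGFR, MEK and GSK inhibitor, and the counts of 0 or 1 in the lists below lie near these shares. Of 16 genes of ubiquitin, its activating enzymes and its conjugating enzymes, 0 changed at least 1.5-fold with any inhibitor. The lowest value with the FGFR inhibitor was that of Ube2v1 at -0.39, and with the MEK and the GSK inhibitor that of Ube2t, at -0.21 with each. The conjugating enzymes that can serve MARCH ligases were close to 0 with the FGFR inhibitor, with Ube2d1 at -0.03, Ube2d2 at -0.14, Ube2j2 at -0.09, Ube2l3 at 0.0015 and Ube2n at -0.06. With the GSK inhibitor Ube2d1 was at 0.27 (robust SD 0.30), and the other 4 lay between -0.06 and 0.18. The median of the 16 genes was -0.02, 0.04 and 0.14 with the FGFR, MEK and GSK inhibitor, beside -0.02, -0.01 and -0.0033 for all genes.

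Of 9 genes of ER ligases and ER-associated degradation, which share their compartment with March6, 0 passed 1.5-fold with any inhibitor. Their lowest values were Rhbdd1 at -0.47 with the FGFR inhibitor, Zfand2b at -0.53 with the GSK inhibitor and Zfand2b at -0.18 with the MEK inhibitor. Their highest were Derl1 at 0.04, Ubac2 at 0.31 and Ube2j2 at 0.13 in the same order. Rnf139, another ER ligase, was at -0.10, -0.02 and -0.07 with the FGFR, MEK and GSK inhibitor, and Derl1 was at 0.30 with the GSK inhibitor. The median of this list was -0.12 with the FGFR inhibitor, -0.03 with the MEK inhibitor and -0.07 with the GSK inhibitor. For all genes it was -0.02, -0.01 and -0.0033 in that order.

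Of the mitochondrial genes, among which are known partners of March5, 4 were measured and 0 passed 1.5-fold. The fusion gene Mfn2 was at -0.10 with the FGFR inhibitor, 0.03 with the MEK inhibitor and 0.08 with the GSK inhibitor, and the fission gene Fis1 at 0.06, -0.09 and -0.05. Opa1 was lowest with the FGFR inhibitor at -0.12 and with the GSK inhibitor at -0.21, and Tomm20 with the MEK inhibitor at -0.15. With the FGFR inhibitor, where both March5 probes were lowest, all 4 mitochondrial genes were within 1 robust SD of 0.

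Surface and endosomal proteins tied to MARCH ligases were represented by 2 genes, Bsg and Stx6. Bsg, which encodes the surface protein basigin, was at 0.0063 with the FGFR inhibitor, 0.05 with the MEK inhibitor and 0.18 with the GSK inhibitor. Stx6, which encodes an endosomal syntaxin, was at -0.42 with the FGFR inhibitor (robust SD 0.23), -0.17 with the MEK inhibitor and -0.05 with the GSK inhibitor. Of 8 genes of the ESCRT sorting machinery, which carries ubiquitinated membrane proteins to lysosomes, 0 passed 1.5-fold. Chmp6 was highest with each inhibitor, at 0.22, 0.23 and 0.37, while Vps37a was lowest with the FGFR and GSK inhibitors, at -0.33 and -0.36, and Vps36 with the MEK inhibitor, at -0.16.

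Of 13 other RING finger genes 1 passed 1.5-fold, Rnf25, at -0.72 with the GSK inhibitor; Rnf152 was highest with the FGFR and MEK inhibitors, at 0.36 and 0.32, and Rnf40 with the GSK inhibitor, at 0.29. Rnf187 was lowest with the FGFR inhibitor, at -0.23, and Rnf20 with the MEK inhibitor, at -0.12. Of 27 proteasome genes 0 passed 1.5-fold. Psmc6 was lowest with the GSK inhibitor, at -0.55, and Psma3 with the FGFR and MEK inhibitors, at -0.25 and -0.28. Psma6 was highest with the FGFR inhibitor, at 0.19, Psma1 with the MEK inhibitor, at 0.14, and Psmc5 with the GSK inhibitor, at 0.22. Symbols could be paired only for genes in the rows of the supplementary listings that were at hand, so these lists are samples of their pathways.

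RefSeq promoter windows of 300 bases (build GRCm38.p6) were at hand for all 7 genes, and the number of CpG dinucleotides was 53 for March6, 49 for March7, 38 for March9, 37 in each of the windows of March5, 33 for March8, 30 for March11 and 13 for March4. Over all 32851 windows the median was 7 and the upper quartile 20. Of the 7 genes 6 had CpG counts above the upper quartile, and March4 lay between the median and the upper quartile. Genes measured on the array were not set apart in these windows.

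Some ES cell markers passed 1.5-fold on the same arrays. Of the 4 markers measured, 3 passed 1.5-fold with the FGFR inhibitor, namely Prdm14 at 0.60, Nr5a2 at 0.60 and Gbx2 at -0.98, 0 passed with the MEK inhibitor and 1, Nr5a2 at 0.75, with the GSK inhibitor. Gbx2 was at -0.22 with the MEK and with the GSK inhibitor, Prdm14 at 0.10 and -0.16, and Nr5a2 at 0.19 with the MEK inhibitor. The value of Gbx2 with the FGFR inhibitor depended strongly on processing, from -0.19 in the processed signals to -2.34 in Cy3 alone. In the processed signals Prdm14 and Nr5a2, each at 0.55 with the FGFR inhibitor, were short of 1.5-fold too; Nr5a2 was also short of it without background subtraction, with median centring and in Cy3 alone, and Prdm14 with an offset of 16. With the MEK inhibitor Prdm14 and Nr5a2 were below 0 in the processed signals, at -0.07 and -0.52. Gbx2 with the MEK inhibitor was at -0.66 in Cy3 alone, past 1.5-fold. Prdm14 with the GSK inhibitor was at 0.0047 in Cy3 alone. Tcfcp2l1 was at 0.42, 0.40 and 0.41 with the FGFR, MEK and GSK inhibitor, but in Cy3 alone at 0.76, 0.76 and 1.10, past 1.5-fold with each. Col3a1 was at -0.16, -0.25 and -0.07, Fn1 at 0.40, 0.38 and 0.36, and Sox17 at -0.17, 0.11 and -0.37 in the same order. In the processed signals Sox17 was at -0.57, -0.19 and -0.65, past 1.5-fold with the GSK inhibitor. With the MEK inhibitor it was also below 0 in Cy3 alone, at -0.03. These markers are therefore no firm scale for the MARCH genes, and no value here checks which array held which inhibitor.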

How the data were processed

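RNA of 4 cultures, grouped by their sample labels, was measured on 4 arrays of 1 slide. The authors deposited scanner output with spot intensity and local background, not normalized, and with processed intensity and a log10 ratio made by Agilent Feature Extraction 9.5. The deposited table of log10 values was matched to spots by feature number; every entry was rebuilt within 0.01 as log10 processed Cy3 over Cy5 plus the mean log10 Cy5 of the arrays. Its column medians were 2.26, 2.25, 2.26 and 2.26 for the control, FGFR, MEK and GSK inhibitor.

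Background was corrected by normexp (offset 50, all spots) in limma 3.58.1 (R 4.3.3). Control spots and spots flagged as outliers were then left out, ratios of Cy3 to Cy5 were normalized by loess, and spots of a probe were averaged. A gene entered a count only if the scanner software placed its Cy3 signal well above background on each of the arrays compared. For a gene with several probes, counts used the probe that the listing gives for these arrays. Genes were divided by Cy3 signal into 20 groups, and the robust SD of each was computed as a scaled median absolute deviation. The steps were tested on simulated arrays, on bright spots only and with planted changes larger than any MARCH change by the processing used. That test cannot tell how well smaller changes or dim probes are recovered. Symbols came from supplementary listings, from which no value was taken; comparisons listed there beside the inhibitors were not used here. Named genes were all MARCH genes, fixed partners, and the highest and lowest member of each list with each inhibitor. A few of these, and 1 gene most like a MARCH probe, are not reported here. The members and lists were chosen with earlier results of these data known. Alternatives changed the background correction, normalization, use of Cy5, filter and table. Python 3.11.15, numpy 2.4.6 and pandas 2.3.3 were used. Precision is limited by there being 1 array in each condition.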

Additional observations from a re-analysis of the deposited data

How the results depend on the processing

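No paired analysis was possible because 1 array was made for every treatment, and for the same reason no replicate could be left out. Fold changes and levels were recomputed for the 8 probes whose Cy3 signal was well above background throughout. The counts of MARCH genes past 1.5-fold and 2-fold were 0 under 6 of the alternatives that can change a log2 ratio or a filter; with processed signals of the scanner software or the deposited log10 table, March11 alone (1 gene) passed both with the FGFR inhibitor, and 1 gene differed at least 1.5-fold between the FGFR and MEK inhibitors. Counts use the first probe of a gene; the second March5 probe passed 1.5-fold in Cy3 alone with the FGFR inhibitor, at -0.59. The alternatives for differences between inhibitors and for the counts against the reference were chosen after seeing the data. With median centring the count of MARCH genes at least 1.5-fold above the reference on all 4 arrays went from 2 to 0. In the processed signals March11 was at -1.05, -0.14 and -0.56 with the FGFR, MEK and GSK inhibitor, and the deposited table gave the same to 2 decimals (-1.05, -0.14 and -0.56); an offset of 16 gave -0.22 with the FGFR inhibitor. Under processed signals 12.8% of all genes passed 1.5-fold with the FGFR inhibitor, 6.74% with the MEK inhibitor and 15.1% with the GSK inhibitor. Median centring moved the MEK comparison, to 0.0538 and 0.0617 for the March5 probes, 0.043 for the first March6 probe, -0.0151 for March7, 0.17 for March8 and 0.33 for March9; of all genes past 1.5-fold, 90.4% were then higher, against 55.4% with loess. With the GSK inhibitor 60.0% were higher, against 46.0%. Cy3 alone gave 0.26 for March7 with the FGFR inhibitor and -0.0362 with the MEK inhibitor. Cy5 of the reference on that probe differed by 0.23 and 0.17 in these comparisons. Mean levels over the 4 arrays moved with median centring to -0.0009 and 0.62 for the March5 probes, -2.17 and -0.42 for the March6 probes, 0.56 for March7, -2.98 for March8 and 0.73 for March9. Processed signals gave mean levels of 0.67 and 1.24 for the March5 probes, 1.40 for March9 and 1.56 for March11, for which an offset of 16 gave 0.51. The causes were not tested. Without background subtraction each of these values moved by less than its robust SD. Aquantile after loess leaves log2 ratios as they are, so that its equal values are no check. Signal over background limits March4 and March11.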
